A study of Mus musculus with 18 samples.

Results

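The nuclear genes of oxidative phosphorylation (OXPHOS) were examined in peak lists from ATAC-seq of mouse retina, an assay in which a transposase cuts accessible DNA. They were taken as all protein-coding genes of the GENCODE M21 annotation of mm10 whose symbol starts with Nduf, Sdh, Uqcr, Cox or Atp5. This gave 107 of 21938 protein-coding genes: 46 of complex I, 8 of complex II, 8 of complex III, 26 of complex IV, 18 of complex V and Cox7a2l, a factor that joins complexes III and IV. Genes were assigned to complexes by symbol and not by where their protein is found, so Ndufa4 and Ndufa4l2 count under complex I. The 18 libraries came from whole retinas of wild-type mice, 3 per group. Mice were 3 or 18 months old (3mo, 18mo). Each age had 3 groups. In the IOP group, the pressure inside 1 eye was raised to 30 mmHg during 1 h. The contralateral group was the other eye of such animals, left without pressure, and the third group came from untreated animals. Per the labels, pressure and contralateral retinas were taken on day 2, while the study's text gives a different day. The treatment text that the labels share also mentions dasatinib or vehicle injections, but the labels assign none of the libraries to either. Whether the 3 retinas of a group came from separate mice is not given in the labels, so p-values measure the spread between these libraries.

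Oxidative phosphorylation makes ATP in mitochondria. Complex I (NADH dehydrogenase) and complex II (succinate dehydrogenase) pass electrons to ubiquinone, complex III (the cytochrome bc1 complex) passes them on to cytochrome c, and complex IV (cytochrome c oxidase) passes them to oxygen. Complex V (ATP synthase) uses the resulting proton gradient. A few core subunits are encoded in mitochondrial DNA, and all others are encoded in the nucleus and must be made together. The retina, and its photoreceptors above all, uses much energy. Several complex IV subunits exist as a widely used isoform and as isoforms known from muscle, lung, testis or other tissues.

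A promoter was taken as called in a library when a peak of that library's list overlapped the 1 kb on either side of any annotated start of the gene. The lists held 36011 to 66160 peaks, and 58.3% to 65.2% of protein-coding genes were called per library. Of 23 markers of retinal cell types, 14 were called in all 18 libraries, with all 6 rod markers among them, and 1 (Slc17a6, of ganglion cells) in none. Of 22 markers of other tissues, 15 were called in none and 3 in all 18. These 3 were Ckm of muscle, Mbp of oligodendrocytes and Best1 of pigment epithelium. Of the 6 muscle markers, Acta1, Myh1 and Myl1 were called in none, and Tnnt3 and Myod1 in 1 library each. The shortest peak in a list was 79 to 89 bp in the 6 untreated libraries, 114 to 122 bp in 5 and 148 to 157 bp in 7 of the other libraries. This property of the lists therefore cannot be told apart from the untreated state, and its values are given beside the IOP results. The lists hold no read counts, so sequencing depth is unknown.

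The promoter sequences below show what the open DNA of these genes looks like. For each complex, the gene of highest promoter rank (defined later) with a match to NRF1, ETS or YY1 in the bases shown is printed, among genes with at least 100 such bases. These factors are known regulators of nuclear mitochondrial genes. The bases are 5′ to 3′ on the strand of the gene, from RefSeq GRCm38.p6 (mm10), within 200 bases around the median summit of its peak, shortened so that at most 50 bases lie in an annotated exon. Capitals mark matches on either strand to a consensus of NRF1, to CCGGAAG for ETS factors or to AAGATGGC for YY1. The NRF1 consensus allowed any base at a central position, so a match need not be a palindrome. Ndufb4, a complex I subunit, is shown at chr16:37654404-37654555 on the minus strand. Sdhd, a membrane anchor of complex II, is at chr9:50603786-50603932 on the minus strand. Uqcr11 of complex III is at chr10:80406781-80406955, Cox18, which inserts a complex IV subunit into the membrane, at chr5:90223952-90224142, and Atp5e, the epsilon subunit of complex V, at chr2:174464079-174464278, all on the minus strand.
Ndufb4: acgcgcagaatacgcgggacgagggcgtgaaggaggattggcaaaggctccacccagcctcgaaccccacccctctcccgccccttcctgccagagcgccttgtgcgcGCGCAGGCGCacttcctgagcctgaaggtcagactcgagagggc
Sdhd: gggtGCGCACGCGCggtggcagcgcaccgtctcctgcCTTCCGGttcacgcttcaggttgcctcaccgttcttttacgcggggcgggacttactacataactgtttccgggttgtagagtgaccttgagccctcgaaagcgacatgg
Uqcr11: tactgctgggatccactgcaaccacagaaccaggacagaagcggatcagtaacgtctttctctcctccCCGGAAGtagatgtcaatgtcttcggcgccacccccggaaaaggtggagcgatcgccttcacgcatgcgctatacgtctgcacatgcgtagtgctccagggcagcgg
Cox18: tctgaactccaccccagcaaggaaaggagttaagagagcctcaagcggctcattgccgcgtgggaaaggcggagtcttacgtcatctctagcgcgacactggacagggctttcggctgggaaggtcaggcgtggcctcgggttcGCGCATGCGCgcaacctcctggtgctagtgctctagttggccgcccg
Atp5e: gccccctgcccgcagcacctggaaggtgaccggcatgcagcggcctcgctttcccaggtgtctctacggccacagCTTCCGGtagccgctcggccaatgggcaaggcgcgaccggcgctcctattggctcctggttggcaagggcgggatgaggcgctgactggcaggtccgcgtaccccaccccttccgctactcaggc
NRF1 matches stand in Ndufb4, Sdhd and Cox18, and ETS matches in Sdhd, Uqcr11 and Atp5e.

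Nearly all OXPHOS promoters were called in every retina. Of the 107 genes, 99 (92.5%) were called in all 18 libraries, against 54.9% of all protein-coding genes. One gene, Cox4i2, was called in 17 libraries, and 7 genes were called in none (6.54%, against 31.9% of all protein-coding genes). For comparison, 81 of 91 cytosolic ribosomal protein genes (Rpl and Rps) and 78 of 78 mitochondrial ribosomal protein genes (Mrpl and Mrps) were called in all 18. By complex, assigned by symbol, the calls in all 18 libraries were 45 of 46 for complex I and 7 of 8 for complex II. They were 8 of 8 for complex III, 21 of 26 for complex IV and 17 of 18 for complex V. The gene without these calls under complex I was Ndufa4l2. Assembly factors, which help to build a complex without staying in it, were called in all 18 for 20 of 21 genes, and subunits for 77 of 84. The subunits of complex IV stood lowest with 12 of 17, while all 9 of its assembly factors were called.

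Of the 8 genes without a call in all libraries, 5 were tissue-restricted isoforms of complex IV. Cox4i2 (chr2:152754173-152765037), the lung form of subunit 4, missed a call in 18mo IOP replicate 3, which was also the shortest list. Cox6a2 (chr7:128205435-128206387) and Cox8b (chr7:140898945-140900446), known from heart and skeletal muscle, had their nearest peak 1843 to 30815 bp and 2672 to 8228 bp from the start. Cox8c (chr12:102899316-102900526) and Cox7b2 (chr5:71442824-71548205), both known from testis, had it at 8975 to 13305 bp and at 2413 to 152910 bp. Ndufa4l2 (chr10:127514967-127517154), a hypoxia-induced relative of Ndufa4, had a peak 1735 to 1807 bp away in every library. A second annotated gene under the symbol Atp5o (chr16:91684398-91926982) had none within 2 kb, whereas the gene that encodes the Atp5o subunit of complex V (chr16:91925214-91931687) was called in all 18.

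Sdhaf1, an assembly factor for complex II, was the remaining uncalled gene, and here the call depended on the annotated start. The GENCODE start (chr7, 30323895) had its nearest peak 1095 to 1321 bp away in all 18 libraries. RefSeq places the start 1520 bp further into the gene, at 30322375. Each library had a summit 11 to 76 bp upstream of that position. This peak was among the stronger peaks of every list, at the 94.5th to the 99.6th percentile of the −log10 q-value of all peaks, with a median of 97.2. Ndufa4l2 was also called in all 18 at its RefSeq start (chr10, 127509274), where the median summit lay at 127509304.5. With RefSeq starts for the uncalled genes, an alternative chosen after seeing the data, 101 of the 107 genes were called in all 18 libraries. The second Atp5o entry is not among them, since RefSeq starts were matched by symbol and the RefSeq start of Atp5o (91931630) lies at the peak of the Atp5o gene already counted. Cox6a2, Cox7b2, Cox8b and Cox8c stayed at 0 libraries.

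**Figure D1:**
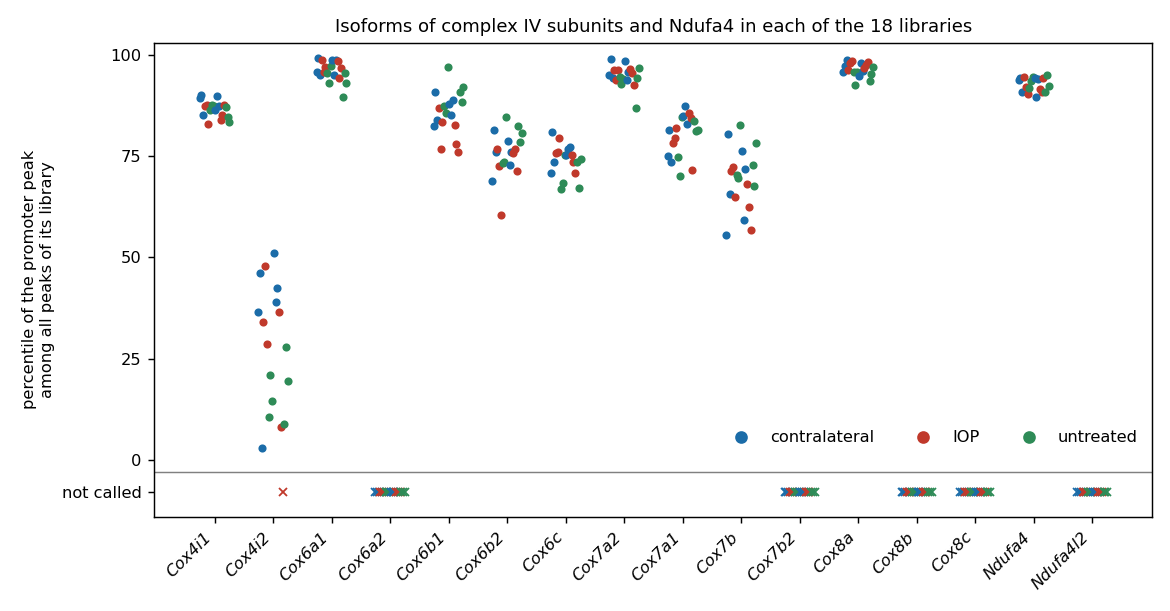
Percentile of the strongest promoter peak among all peaks of its library (y axis, 0 to 100) for widely used and tissue-restricted isoforms (x axis), 1 point per library, coloured by contralateral, IOP or untreated; crosses mark libraries without a call. Cox6a2, Cox7b2, Cox8b, Cox8c and Ndufa4l2 were called in no library at their GENCODE starts, and the Cox4i2 points lie below those of every other called gene shown.

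At GENCODE starts, the widely used isoform of each pair with a tissue-restricted one had the stronger mean peak or the only call. The peak at the RefSeq start of Ndufa4l2 was not compared with that of Ndufa4. Peak strength is given as the percentile of the −log10 q-value within the list of the same library. Cox4i1, the general form of subunit 4, stood at a mean percentile of 86.6, and Cox4i2 at 28.0 over the 17 libraries that called it. In single libraries Cox4i2 was at 36.6, 46.2 and 2.91 in 3mo contralateral, 34.1, 47.9 and 28.7 in 3mo IOP and 10.6, 21.1 and 14.5 in 3mo untreated retinas. At 18mo it was at 51.1, 39.0 and 42.5 in contralateral, 36.5 and 8.12 in 2 of 3 IOP and 8.81, 28.0 and 19.6 in untreated retinas. Its untreated values were low at both ages, and the contralateral values overlapped them only through 3mo contralateral replicate 3. When each list was limited to its 36011 strongest peaks, as many as the shortest list held, Cox4i2 was called in 5 of 6 contralateral, 4 of 6 IOP and 0 of 6 untreated libraries. Its peaks were narrow, with a median of 210 bp against 887.5 bp for Cox4i1, and the median summit lay 348 bp downstream of the start. Cox6a1, the general partner of Cox6a2, stood at 95.9, Cox8a, the general partner of Cox8b and Cox8c, at 96.4, and Ndufa4 at 92.7.

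Other tissue-restricted isoforms were called in every library. Cox6b2, known from testis, was called in all 18 at a mean percentile of 75.6, below Cox6b1 at 85.8. Cox7a1, the heart and muscle form of subunit 7a, was also called in all 18 at 80.2, below Cox7a2 at 94.8. Cox7b and Cox6c, which are widely used, stood at 69.3 and 74.0. The Cox6c value joins peaks whose median summits lay 1705 bp apart between contralateral and untreated libraries. Cox7b and Cox6c thus lay below Cox6b2 and Cox7a1, so that strength alone did not separate widely used from tissue-restricted isoforms. Bulk retina was measured, so a promoter open in few cells and one weakly open in many cannot be told apart.

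Among genes called everywhere, OXPHOS promoters were stronger than the median gene and spread widely. The promoter rank is the percentile of the −log10 q-value of a gene's strongest promoter peak among the 12054 protein-coding genes called in all 18 libraries, ranked within each library. The median over the 99 OXPHOS genes was 61.0, against 51.1 over all 12054 genes, 65.0 for cytosolic and 49.7 for mitochondrial ribosomal protein genes. The medians by complex were 58.1 for I, 71.6 for II, 59.7 for III, 54.6 for IV and 67.3 for V. The ranges of the complexes overlapped, and those of I, IV and V were the widest. Complex V ran from 14.6 to 99.6, complex IV from 14.5 to 90.6 and complex I from 15.9 to 91.0. Complexes II and III ran from 42.1 to 82.4 and from 41.6 to 83.8.

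**Figure D2:**
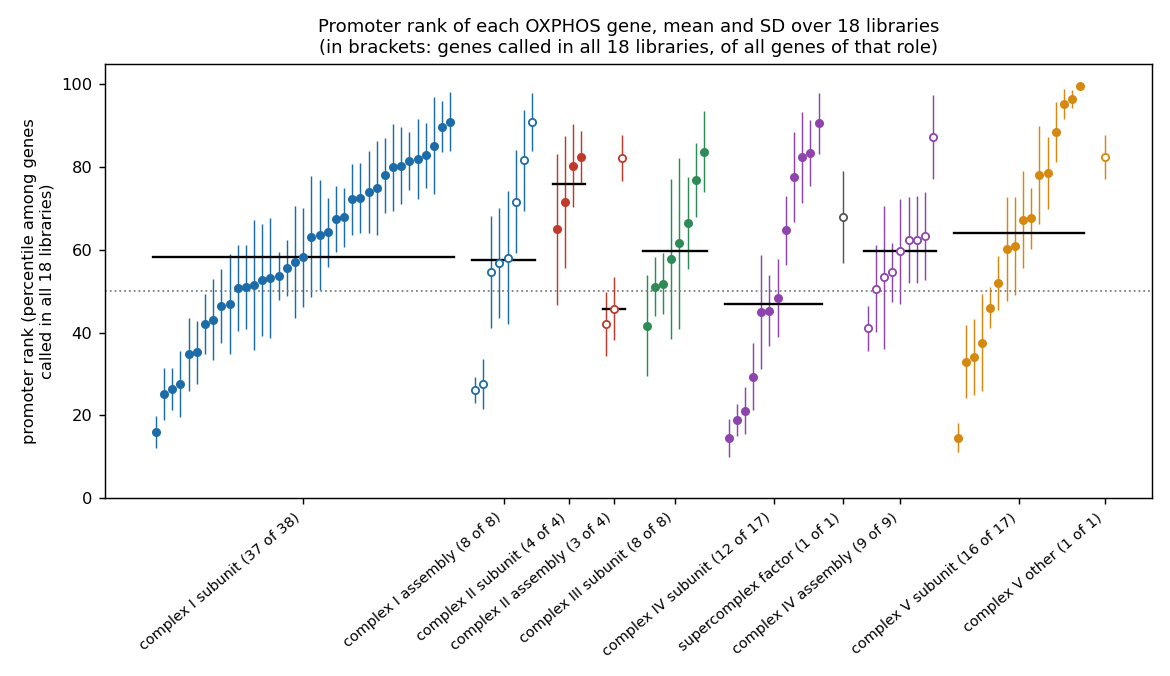
Promoter rank (y axis, percentile) of each OXPHOS gene called in all 18 libraries, as mean ± SD over the libraries, grouped and coloured by complex, with filled points for subunits and open points for other roles (the dotted line marks the 50th percentile and black bars the medians). The genes spread over most of the scale, from 14.5 (Cox7b) to 99.6 (Atp5e).

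Complex V held both the strongest and nearly the weakest promoters. Atp5e had a rank of 99.6 ± 0.467 (SD, n = 18), with 98.5 as its lowest value in any library. Atp5h, a subunit of the peripheral stalk, followed at 96.5 ± 2.17 and Atp5g1, 1 of 3 genes for the proton-carrying subunit c, at 95.3 ± 3.65. The other genes for subunit c were lower, Atp5g3 at 60.2 ± 12.5 and Atp5g2 at 34.0 ± 9.12, and the 3 genes differed by more than their SDs. Atp5l and Atp5k, membrane subunits g and e, were lowest at 14.6 ± 3.51 and 33.0 ± 8.77.

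In complex I the highest ranks were those of Ndufa2 (91.0 ± 7.09) and of the assembly factor Ndufaf8 (90.9 ± 6.93), and the lowest those of Ndufs4 (15.9 ± 3.93) and Ndufb10 (25.1 ± 6.30). Ndufs4 is an accessory subunit whose loss causes Leigh-like disease in mice. In complex II, Sdhb, the iron-sulfur subunit, was at 82.4 ± 6.31 and the assembly factor Sdhaf4 at 82.2 ± 5.64. Sdhaf3 (42.1 ± 7.67) and Sdhaf2 (45.8 ± 7.56), both assembly factors, were lowest. In complex III, Uqcrq (83.8 ± 9.82) and the Rieske protein Uqcrfs1 (77.0 ± 8.94) were highest, and the core subunit Uqcrc1 (41.6 ± 12.2) and the hinge protein Uqcrh (51.1 ± 7.07) lowest. In complex IV, Cox5b (90.6 ± 7.40) and Cox18 (87.4 ± 10.1) were highest and Cox7b (14.5 ± 4.66) and Cox6c (18.8 ± 3.89) lowest. Except for Ndufs4 and Ndufb10, the genes named at each end of these complexes differed from each other by no more than the larger of their SDs over the 18 libraries.

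The open region usually lay on the gene's own start. The summit was within 200 bp of the start for 91 of 99 OXPHOS genes (91.9%), against 85.6% of all genes, and the median summit was at -29 bp, upstream of it. With upstream positions negative, the exceptions were Ndufa13 (-698 bp), Ndufa11 (-683 bp), Cox20 (-386 bp), Uqcrh (-358 bp), Cox7a2l (-296 bp), Uqcr10 (-294.5 bp), Uqcrq (-291 bp) and Ndufa10 (285 bp). Another protein-coding gene started on the opposite strand within 1 kb for 37 of the 99 genes (37.4%), against 19.2% of all genes, 42.3% of mitochondrial and 17.3% of cytosolic ribosomal protein genes. Such pairs made up 20 of 45 complex I genes and 3 of 21 complex IV genes. Some pairs join genes of mitochondrial function, such as Ndufb5 with Mrpl47, Ndufs6 with Mrpl36 and Sdhd with Timm8b. Atp5j started 80 bp from Gabpa, which encodes the DNA-binding subunit of NRF2, an ETS factor. The strength of a peak that covers both starts cannot be given to either gene.

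Motif matches near the summits are given as shares of genes, with no test. In the 200 bases around the median summit, 25 of 99 OXPHOS genes held an NRF1 match (25.3%), against 11.2% of all genes called in all libraries. ETS matches were in 24.2%, against 18.0%, and YY1 matches in 14.1%, against 4.54%. At least 1 of these was present in 54 genes (54.5%), against 30.4% of all genes. The share with the SP and KLF motif GGGCGG was lower, at 48.5% against 65.6%. The cyclic AMP response element TGACGTCA was rare in both, at 3.03% against 3.58%. So was the core promoter box TATAAA, at 2.02% against 2.13%. The motif TAATCC of the photoreceptor factors Crx and Otx2 was in 6.06% against 3.88%. NRF1 matches were found in 10 of 45 complex I, 4 of 7 complex II, 1 of 8 complex III, 3 of 21 complex IV and 7 of 17 complex V genes. ETS matches were found in 6, 4, 1, 8 and 5 of the same genes. Cytosolic ribosomal protein genes had a higher ETS and a lower NRF1 share, with NRF1 in 7.41% and ETS in 39.5%. At least 1 of NRF1, ETS and YY1 was matched in 59.0% of mitochondrial and 53.1% of cytosolic ribosomal protein genes. In the same order, YY1 matches were in 14.1% and 9.88%, and GGGCGG in 46.2% and 53.1%. The combined share was thus not particular to OXPHOS genes. Motifs were searched on both strands, ETS matches and NRF1 matches were counted separately, and a match is a description of letters. The median GC content of these windows was 63.0% for OXPHOS genes and 66.5% for all genes.

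**Figure D3:**
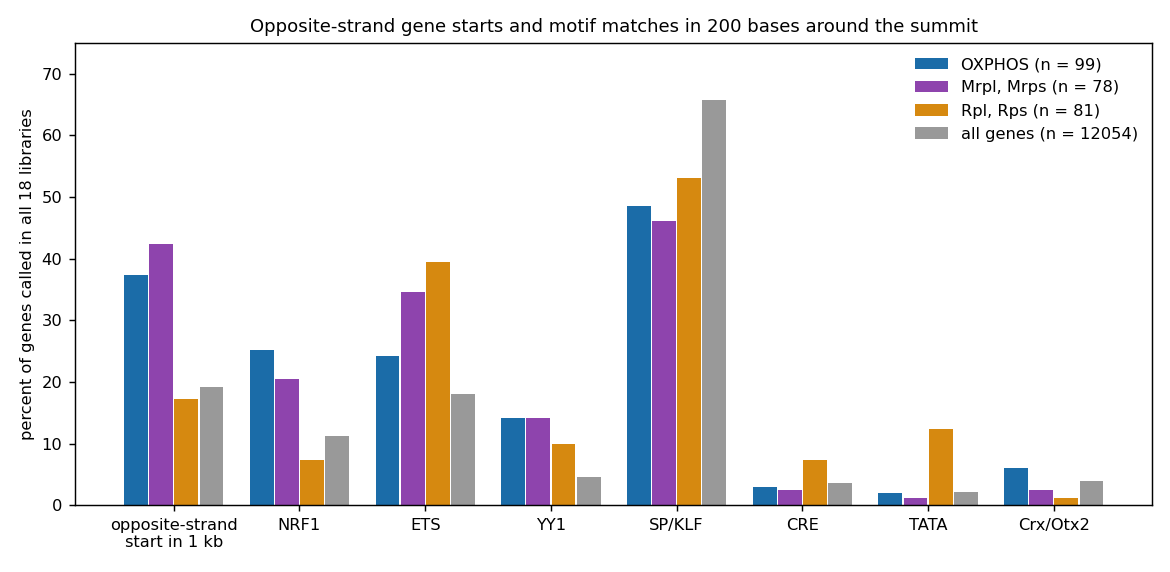
Percent of genes called in all 18 libraries (y axis) with an opposite-strand protein-coding start within 1 kb or with a match to 1 of 7 motifs in the 200 bases around the summit (x axis), for OXPHOS genes, mitochondrial ribosomal, cytosolic ribosomal and all protein-coding genes. NRF1 matches were in 25.3% of OXPHOS, 20.5% of mitochondrial ribosomal, 7.41% of cytosolic ribosomal and 11.2% of all genes.

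All 33 genes of a list of further assembly factors, cytochrome c and related OXPHOS genes with other symbols were called in all 18 libraries, with a median rank of 65.2. So were all 17 genes of a list of regulators of mitochondrial gene expression, with a median rank of 67.7. Cyc1, the cytochrome c1 subunit of complex III, belongs to the first list and stood at 52.5, and Cycs, cytochrome c itself, at 90.5.

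The number of OXPHOS genes called did not vary between groups by more than 1 gene. It was 100 in every library of 5 groups. In 18mo IOP it was 99.67 ± 0.58 (SD, n = 3), from 100 in 2 libraries and 99 in replicate 3, where Cox4i2 was missed. With the lists as deposited, no gene of the 107 had a pattern of calls in which an exact test could pass 0.05. Over all protein-coding genes, 0 of 570 testable genes passed for age (18mo against 3mo controls, Fisher's exact test, two-sided, Benjamini-Hochberg, background 0.0%) and 10 had an unadjusted p under 0.05. For IOP against contralateral, stratified by age with an exact conditional test, 0 of 277 passed (0.0%) and 5 had an unadjusted p under 0.05. For contralateral against untreated, 0 of 570 passed (0.0%, smallest adjusted p 0.0919) and 94 had an unadjusted p under 0.05. With an equal number of peaks per list, 167 of 519 testable genes passed, 151 higher and 16 lower in contralateral retinas, with Cox4i2 as the 1 OXPHOS gene among them. Within 1 age, 3 libraries against 3 cannot give an exact p below 0.1. The median promoter rank of the OXPHOS genes was 60.9 ± 4.6 (3mo) and 64.2 ± 3.71 (18mo) in contralateral, 61.5 ± 4.31 and 60.1 ± 1.69 in IOP, and 61.3 ± 1.61 and 58.0 ± 0.71 in untreated libraries (SD, n = 3 each). The group means thus lay between 58.0 and 64.2. Complex V had group medians of 73.0 ± 1.16 and 71.4 ± 1.26 in contralateral and 60.4 ± 7.63 and 59.4 ± 3.64 in untreated libraries, and complex III had 56.0 ± 4.90 and 61.5 ± 8.14 against 67.3 ± 3.38 and 66.4 ± 1.68.

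Age was compared between the 6 control libraries of 18mo and the 6 of 3mo, with limma on promoter ranks in a model of the 6 groups. No OXPHOS gene passed an adjusted p of 0.05 (limma, Benjamini-Hochberg over 12054 genes), where 69 of all 12054 genes did (0.572%; 34 higher, 0.282%, and 35 lower, 0.29%, at 18mo). An unadjusted p under 0.05 was reached by 7 of the 99 genes, against 9.52% of all genes. The median absolute difference was 3.05 percentile points, against 2.65 over all genes, and 51 of 99 genes were higher at 18mo. Cox7a1 had the smallest p. Its rank ran from 18.0 through a median of 21.5 to 28.6 in 3mo controls and from 28.2 through 31.2 to 46.2 in 18mo controls. The ranges overlapped only between 28.2 and 28.6, and the difference was 11.2 ± 3.55 points (SE, adjusted p = 0.193). Within untreated retinas Cox7a1 was at 22.6 ± 5.42 and 31.8 ± 2.49, and within contralateral retinas at 22.1 ± 3.83 and 35.3 ± 9.56 (SD, n = 3, 3mo and 18mo). Ndufb9, an accessory subunit of complex I, differed by 12.5 ± 5.37 points (adjusted p = 0.436). The largest negative differences were those of Ndufb11 and of Ndufv2, a subunit that helps to oxidise NADH, with -11.7 ± 4.21 (adjusted p = 0.291) and -10.8 ± 4.11 points (adjusted p = 0.332). By complex, the median difference ran from -1.52 points in complex V to 3.35 in complex III.

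IOP was compared with the contralateral retinas at each age. No OXPHOS gene passed at 3mo, where 4 of 12054 genes did (0.0332%), or at 18mo, where 8 did (0.0664%), and none passed over both ages (8 of 12054, 0.0664%) or when the IOP effects at 18mo and 3mo were set against each other (0 of 12054, 0.0%). At an unadjusted p under 0.05 there were 1, 9, 8 and 3 of the 99 genes, against 2.36%, 8.06%, 5.86% and 3.56% of all genes. At 3mo the largest differences were those of Ndufa5 (-13.8 ± 6.00 points, SE), Uqcr11 (-10.1 ± 6.90), Ndufa3 (11.5 ± 6.24) and Atp5g3 (10.2 ± 9.03), all with an adjusted p of 0.9998 in limma. Their standard errors were a large share of the differences. Leaving out 1 library gave -16.5 to -9.08 for Ndufa5, -16.6 (without IOP replicate 1) to -3.43 (without IOP replicate 3) for Uqcr11, 7.34 (without IOP replicate 1) to 18.7 (without contralateral replicate 2) for Ndufa3 and 5.13 to 14.9 (without the same libraries) for Atp5g3. At 3mo, 1 of 3 lists in each group had a shortest peak of 114 to 122 bp. With the shortest peak as a covariate the differences ran from -13.4 (Ndufa5) to 12.3 (Ndufa3).

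At 18mo the differences were wider. The median absolute difference was 4.99 points over the OXPHOS genes and 3.72 over all genes, against 2.88 and 2.53 at 3mo. With the shortest peak as a covariate these medians were 3.56 and 3.02 at 18mo and 2.88 and 2.56 at 3mo. Ndufb9 was at 81.4, 64.6 and 64.3 in the contralateral and at 40.8, 45.9 and 43.3 in the IOP retinas. The groups did not overlap, but the gene was named for its large difference, and the share of all genes without overlap was not computed. The difference was -26.8 ± 7.60 points (SE, limma adjusted p = 0.387). At 3mo Ndufb9 was at 45.8, 60.3 and 41.0 in contralateral and at 54.7, 51.4 and 43.0 in IOP retinas, which overlapped. The test of the difference between ages gave -27.5 ± 10.7 points (adjusted p = 0.984). Ndufs3, a core subunit of complex I, was at 61.8, 40.3 and 57.5 in 18mo contralateral and at 37.5, 28.4 and 33.6 in 18mo IOP retinas (-20.0 ± 7.82, adjusted p = 0.578). Ndufa6 (12.9 ± 5.02, adjusted p = 0.578) and Ndufa11 (14.4 ± 6.49, adjusted p = 0.597) had positive differences short of the threshold. Lists with a shortest peak of 114 to 122 bp were 2 of 3 in 18mo contralateral and 1 of 3 in 18mo IOP. With the shortest peak as a covariate the difference was -23.0 points for Ndufb9 and -11.9 for Ndufs3.

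Over both ages, 36 of 99 genes were higher and the median difference was -1.47 points. By fold over local background in place of the q-value, 50 of 99 were higher and the median was 0.0864, so that the sign of this median depended on the measure ranked. With the shortest peak as a covariate the median was -0.451 and 41 were higher, and leaving out 1 library gave medians from -2.12 (without 3mo IOP replicate 1) to -0.446 (without 18mo IOP replicate 2). Ndufs1, the largest core subunit of complex I, had the largest positive difference (8.54 ± 3.80 points, SE, adjusted p = 0.826), followed by Ndufa11 (7.92 ± 4.59, adjusted p = 0.875). The core subunit of complex III Uqcrc2 (-13.5 ± 8.73, adjusted p = 0.882) and Ndufb9 (-13.1 ± 5.37, adjusted p = 0.775) had the largest negative ones. Leaving out 1 library gave -21.3 (without 18mo contralateral replicate 2) to -5.33 (without 3mo contralateral replicate 2) for Uqcrc2. Lists with a shortest peak of 114 to 122 bp were 3 of 6 in contralateral and 2 of 6 in IOP. With the shortest peak as a covariate the difference was -4.02 points for Uqcrc2, -10.8 for Ndufb9, 5.18 for Ndufa11 and 8.84 for Ndufs1. Ndufa3 at 3mo also depended on the measure, with -0.611 points by fold.

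**Figure D4:**
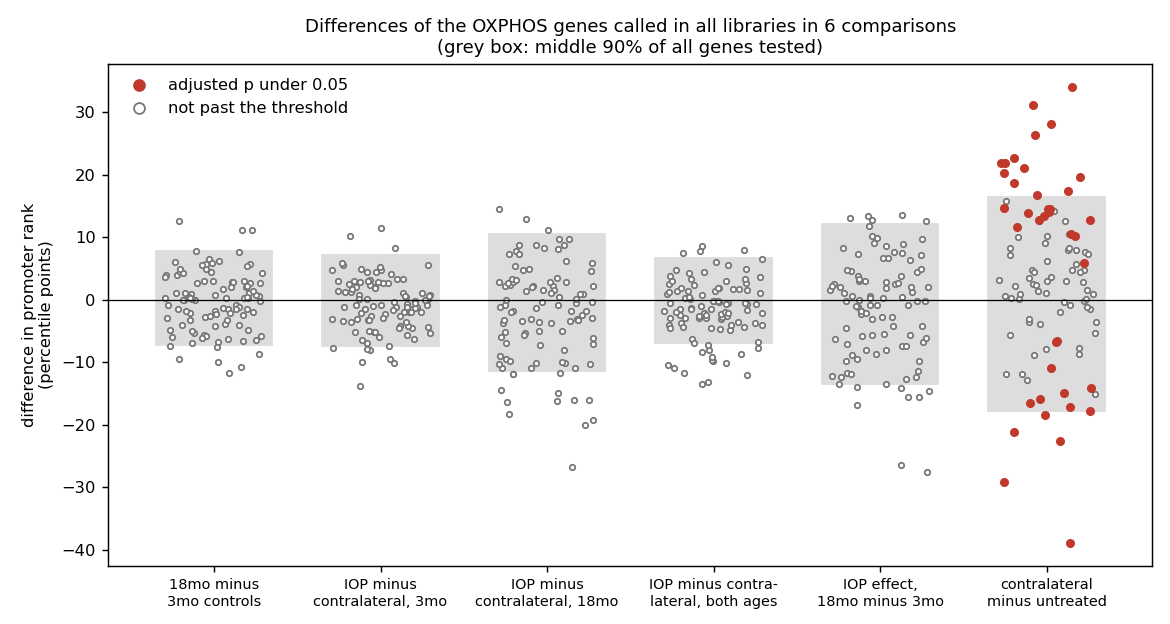
Differences in promoter rank (y axis, percentile points) of the 99 OXPHOS genes in 6 comparisons (x axis), 1 point per gene, filled red where the adjusted p was under 0.05; grey boxes span the middle 90% of all 12054 genes. No gene passed for age or IOP, and 39 genes passed between contralateral and untreated retinas, 25 higher and 14 lower in contralateral.

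OXPHOS promoter ranks differed between the kinds of control. The age and IOP comparisons share these control libraries. Between 6 contralateral and 6 untreated libraries, 39 of 99 genes passed an adjusted p of 0.05 (39.4%; limma), against 30.2% of all 12054 genes, 25 higher and 14 lower in contralateral retinas (15.1% and 15.1% of all genes). The direction was the same at 3mo and at 18mo for 74 of all 99 genes. The share over all genes was not computed for this count. For 15 of the 99 genes the ranks of the 2 kinds did not overlap at all, against 11.5% of all genes. The median absolute difference was 8.67 points, against 5.53 over all genes. Of the cytosolic and mitochondrial ribosomal protein genes, 35.8% and 37.2% passed, with median absolute differences of 8.6 and 6.9 points. Complex V had 4 genes higher and none lower, complex I 13 higher and 6 lower, and complex IV 5 and 5. The lists of the 2 kinds also differed in other ways: all untreated lists had the shorter shortest peak, and the median width of the OXPHOS peaks was 594.5 to 720.5 bp in untreated and 782 to 875 bp in contralateral libraries. The mean promoter peak was wider in contralateral retinas for 99 of 99 OXPHOS genes and for 11969 of all 12054. These differences in rank and the properties of the lists cannot be told apart.

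Uqcr10, a small accessory subunit of complex III, had the largest difference. Its ranks were 45.3, 46.2 and 45.4 in 3mo contralateral, 37.5, 43.3 and 50.7 in 18mo contralateral, 89.7, 81.9 and 88.5 in 3mo untreated and 81.7, 88.8 and 71.1 in 18mo untreated libraries. All untreated values lay above all contralateral values, by 38.9 points on average (difference -38.9 ± 3.95, SE, adjusted p = 5.2e-07 in limma). The 6 IOP libraries, which share the list properties of the contralateral ones, ran from 40.9 to 48.0. Its fold over local background was 9.09 to 13.3 in contralateral and 14.8 to 17.0 in untreated libraries. This promoter is shared with Zmat5, whose start lies 336 bp away on the other strand. The median summit was at 4704587 in contralateral and 4704645 in untreated libraries, a shift of 58 bp towards Zmat5. Both summits lay nearer to the Zmat5 start than to the Uqcr10 start used (4704342). The bases printed below do not include that Uqcr10 start.

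Ndufaf4, an assembly factor of complex I, went the other way. Its ranks were 63.2 to 82.7 in contralateral libraries with a median of 70.9, and 32.2 to 45.8 with a median of 35.7 in untreated ones (34.1 ± 4.17 points, adjusted p = 4.2e-06). The IOP libraries ran from 56.0 to 70.1, above all untreated values. Sdha, the catalytic flavoprotein of complex II, ran from 77.5 to 93.8 with a median of 82.6 in contralateral and from 45.9 to 64.2 with a median of 49.3 in untreated libraries (31.1 ± 4.96, adjusted p = 8.0e-05). The bases of these 3 promoters are shown because their ranks differed most between the kinds of control, with capitals as before. Uqcr10 is at chr11:4704536-4704735 on the minus strand, Ndufaf4 at chr4:24897902-24898101 on the plus strand and Sdha at chr13:74350231-74350308 on the minus strand.
Uqcr10: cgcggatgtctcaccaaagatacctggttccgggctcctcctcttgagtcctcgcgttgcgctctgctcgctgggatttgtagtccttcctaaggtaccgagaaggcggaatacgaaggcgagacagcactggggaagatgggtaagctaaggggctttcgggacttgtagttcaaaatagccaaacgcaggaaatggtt
Ndufaf4: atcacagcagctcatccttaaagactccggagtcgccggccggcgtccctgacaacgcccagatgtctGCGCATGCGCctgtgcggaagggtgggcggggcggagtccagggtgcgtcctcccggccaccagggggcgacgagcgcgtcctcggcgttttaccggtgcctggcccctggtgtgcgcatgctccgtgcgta
Sdha: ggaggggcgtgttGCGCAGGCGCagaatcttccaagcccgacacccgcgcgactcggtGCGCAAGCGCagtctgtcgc
NRF1 matches were present in Ndufaf4 (1) and Sdha (2) and none of the motifs in capitals in Uqcr10.

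Ndufs5 and Ndufb3, accessory subunits of complex I, differed by 26.3 ± 3.94 (adjusted p = 3.9e-05) and -29.1 ± 4.49 points (adjusted p = 5.5e-05). Atp5g2 differed by 18.6 ± 2.81 points (adjusted p = 4.3e-05). For Ndufs5 the median summit shifted by 58.5 bp between the kinds, and for Atp5g2 by 585 bp. In 3 of the 6 untreated libraries another peak was the strongest in the Atp5g2 window, with its summit at 102672221 or 102672222 on chromosome 15, against 102671066 to 102671138 in the contralateral libraries. Over all 99 genes the median shift was 15.0 bp, and over all 12054 genes 23.0 bp. In the wider pathway list 3 genes were higher and 5 lower of 33 (24.2%), among them Cyc1 (-30.1 ± 4.59 points, adjusted p = 5.0e-05), and in the regulator list 2 were higher and 1 lower of 17, among them Gabpa (13.8 ± 3.68, adjusted p = 0.00676). Gabpa and Atp5j share 1 peak and gave the same values. The shared peaks mean that such genes are not separate observations.

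The libraries also differed along the length of their shortest peak within the contralateral and IOP groups. Between the 5 libraries with 114 to 122 bp and the 7 with 148 to 157 bp, the ranks of 17 of 99 OXPHOS genes did not overlap (17.2%), against 13.7% of all genes. Uqcrc2 differed most. It ranged from 65.6 to 92.9 in the former and from 34.8 to 42.8 in the latter, with group means of 77.0 ± 12.5 (n = 5) and 38.1 ± 3.18 (n = 7, SD). The untreated libraries ran from 68.1 to 83.7. Ndufaf7 (89.9 ± 4.49 and 68.1 ± 6.58) and Ndufa8 (74.7 ± 6.40 and 54.6 ± 4.56) had the same order. Cox14, an assembly factor of complex IV (39.2 ± 3.91 and 62.1 ± 4.03), and Uqcrq (74.1 ± 7.18 and 92.6 ± 3.75) had the reverse. Each class held contralateral and IOP libraries of both ages, and no test was made of these differences.

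**Figure D5:**
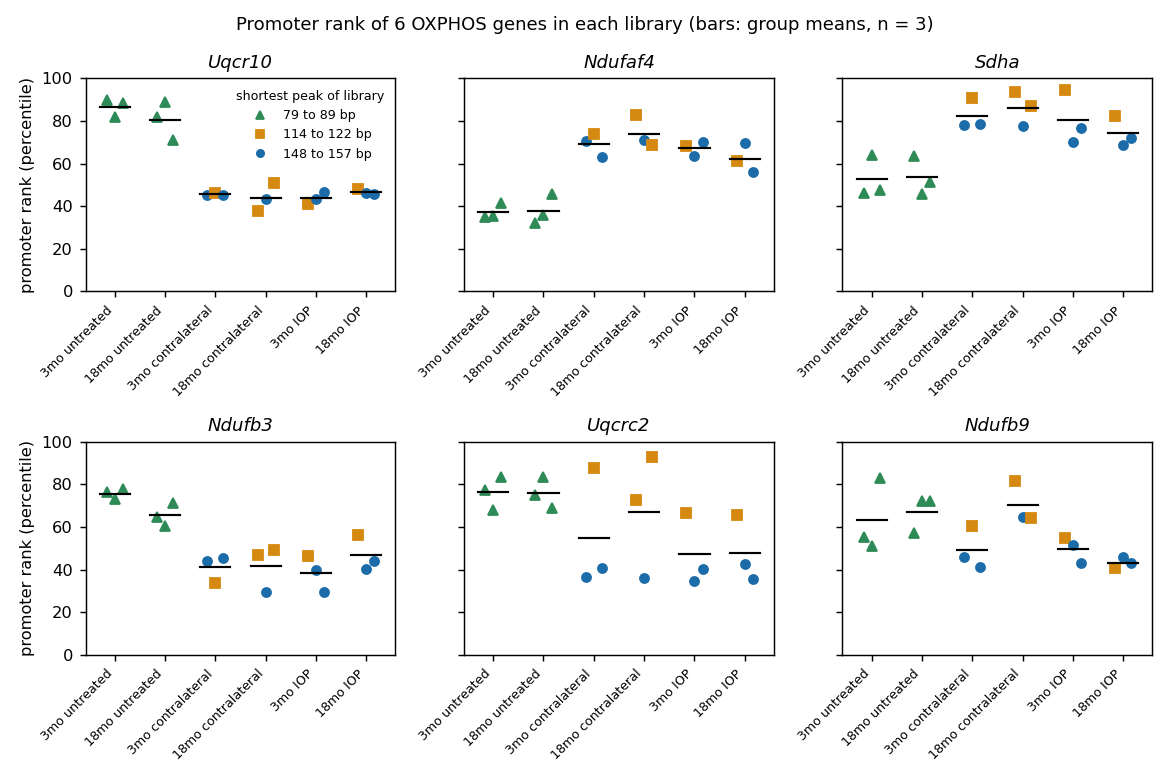
Promoter rank (y axis, percentile) of 6 OXPHOS genes in each library by group (x axis), with symbols for the shortest peak of the library's list and bars for group means (n = 3). Uqcr10 and Ndufb3 were higher and Ndufaf4 and Sdha lower in untreated libraries than in all contralateral ones. Uqcrc2 was lower in the libraries with a shortest peak of 148 to 157 bp than in all others. Ndufb9 was lower in 18mo IOP than in 18mo contralateral libraries.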

How the data were processed

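ATAC-seq peak lists of 18 retina libraries were used, 3 in each of 6 groups taken from the labels. Peaks were called by the authors with MACS2 in each library separately, at a q-value of at most 0.05 per the study's methods. The submitters' processing notes also name STAR 2.7.8a, bedtools 2.29.2, HOMER, edgeR and mm10. How reads were filtered, and whether cut sites were offset for Tn5, is not given in the sources used here, and the extract text shared by the labels also describes immunoprecipitation. The deposited files give a score, a −log10 q-value, a −log10 p-value and a fold over local background (a ratio) per peak. By default MACS2 drops regions shorter than its estimated fragment length, which can differ between libraries and so change which peaks are listed.

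Coordinates were matched to GENCODE M21. No peak passed the GRCm38 length of any of 21 chromosomes. A gene was called when a peak overlapped the 1000 bp around a transcript start by at least 1 bp. Of its peaks the highest −log10 q-value was ranked within the library among genes called in all 18 libraries. Ranks were compared with limma 3.58.1 (trend, robust; R 4.3.3) over 6 group means, two-sided with Benjamini-Hochberg adjustment at 0.05. Calls were compared with exact tests (scipy 1.17.1, Python 3.11.15). Both were tested on simulated data. Motifs were searched in 200 bases around the median summit, and sequences on chromosome 18 were not printed. Named genes were all uncalled genes, fixed isoform pairs, the 2 highest and 2 lowest ranks per complex, and per comparison up to 6 genes past the threshold or else the 2 largest differences in each direction. The genes named for shortest-peak classes, summit distances and paired starts were chosen after their values were seen. The members and lists were chosen with earlier results of these data known. Alternatives changed the window, the peaks used, the transcripts, the strata, the value ranked, the covariates and the libraries included.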

Additional observations from a re-analysis of the deposited data

Results flagged for a closer look

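Of 52 measures in groups of control libraries of 1 age, 3 held a library whose gap to its nearest neighbour, divided by the range, passed Dixon's 95% critical value of 0.625 for 6 samples. Chance gives about 1 in 20 such groups. The median rank of complex I was 71.23 in 3mo contralateral replicate 2, against 55.23 to 60.28 in the other 5 libraries of 3mo controls (gap over range 0.684). The median rank of complex III was 52.1 in 18mo contralateral replicate 2, against 64.7 to 68.06 in the other 18mo controls (0.789). In the same library, the rank of Cox7a1 was 46.15, against 28.21 to 34.62 (0.643). The shortest peak was 116 bp in 3mo contralateral replicate 2 and 152 bp in the other contralateral libraries of that age. It was 149 bp in 18mo contralateral replicate 2 and 114 bp in the others. The part of this property in the 3 values was not tested.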

How the results depend on the processing

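The 99 genes called in all 18 libraries were the same with summits in place of overlap, a window ending 100 bp downstream, a −log10 q-value of at least 5, an equal number of peaks or basic transcripts, and 101 with RefSeq starts, chosen after seeing the data (the second Atp5o entry has no RefSeq start of its own by symbol and is not counted). Apart from leaving out libraries, 133 alternative values of main results stayed the same or within 1.5 times and 4 did not. With an equal number of peaks per list, calling between contralateral and untreated retinas passed for 167 genes, 151 higher and 16 lower in contralateral, and for 1 OXPHOS gene, Cox4i2. For age, 1 OXPHOS gene passed when fold was ranked (Ndufa6, -20.4 ± 3.02 points, limma adjusted p = 0.0137) and 1 with the shortest peak as a covariate (Cox7a1, 12.04 ± 3.17, adjusted p = 0.0414). Ndufa3 at 3mo turned to -0.611 points when fold was ranked. The causes were not tested. Leaving out 1 library gave 0 OXPHOS genes for age and IOP. Between kinds of control it gave 31 to 43 of the 99, against 3078 to 3986 of all 12054 genes. With the covariate, 32 OXPHOS genes were higher and 10 lower in contralateral retinas, in place of 25 and 14. Over all genes these counts were 1793 and 1847, in place of 1819 and 1823. The shortest peak did not overlap between contralateral and untreated lists, so the covariate cannot separate it from the kind of control.

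Over all genes, the age count of 69 ran from 11 with a replicate block to 216 with the covariate (16 by fold), and was 106 without 3mo contralateral replicate 2. The IOP count of 4 at 3mo ran from 0 (fold, and replicate block) to 5. At 18mo the 8 genes ran from 0 (fold) to 11 (covariate), and were 18 without IOP replicate 1 and 5 without contralateral replicate 1 or IOP replicate 3. Over both ages the 8 ran from 2 (fold) to 10, and were 19 without 18mo IOP replicate 1. Without that library 2 genes passed for the difference between ages, against 0.

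With the replicate number as a block, 0 OXPHOS genes passed for age, for IOP at either age or both, and for the difference between ages, and calling tests gave 0. Between contralateral and IOP libraries of 1 age, correlations of same-numbered libraries ran from -0.53 to 0.43. The highest value, 0.69, joined 3mo contralateral replicate 2 and 3mo IOP replicate 1, whose shortest peaks were 116 and 119 bp. Because the shortest peak also differed between libraries, these correlations cannot decide whether same-numbered retinas came from 1 animal. No paired analysis was possible for the kind of control because contralateral and untreated libraries share no replicate numbers. The lists hold no reads, so depth is unknown, and a promoter without a peak may be open below the calling threshold.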
